A study of Mus musculus with 8 samples.

Results

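The genes described here are 39 genes of cholesterol handling in macrophages, found by symbol among the 54532 gene rows of the deposited count table. They fall into a synthesis arm of 22 genes, which holds the enzymes that build cholesterol together with Srebf2, Insig1 and Stard4, and an LXR arm of 11 genes named by Abca1, Abcg1, Apoe and Mylip. The other 6 are the receptor genes Nr1h2 and Nr1h3, the ester cycle and droplet genes Soat1, Nceh1 and Plin2, and the transporter gene Abca9. All 39 were found in the table, and 38 passed the expression filter and were tested. Apoc2 had between 0 and 5 reads per library and was not tested.

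A pair of systems with opposite triggers keeps the cholesterol of a cell in range. When sterol in the endoplasmic reticulum runs low, SCAP carries SREBP2, the product of Srebf2, to the Golgi, where it is cut and released to switch on the enzymes of the mevalonate and sterol pathway; INSIG proteins hold it back when sterol is plentiful. Oxysterols and some sterol intermediates bind the liver X receptors, LXR alpha (Nr1h3) and LXR beta (Nr1h2), which with RXR switch on genes of cholesterol efflux (Abca1, Abcg1, Apoe), of lipoprotein receptor degradation (Mylip, also called IDOL) and of fatty acid synthesis. Macrophages take up much cholesterol from dead cells and lipoproteins, store the excess as ester in droplets and export it through the ABC transporters.

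RNA was sequenced from peritoneal macrophages of mice, wild type (WT) or with a knockout (KO) of Men1, the gene of menin, a scaffold of histone methyltransferase complexes. Thioglycollate broth, which provokes a sterile inflammation of the peritoneum, had been given to the WT and KO animals alike. There were 3 libraries each of M_WT and M_KO and 1 library each of F_WT and F_KO; the letters M and F are kept as the titles write them. The sources used here give neither strain nor age, nor how or in which cells Men1 was deleted.

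Values per library are CPM (read counts scaled to a common library size, with edgeR's TMM factors), and are listed for M_WT_5643, M_WT_6258 and M_WT_6255, then for M_KO_5944, M_KO_5645 and M_KO_5642, then for F_WT_5638 and F_KO_5639. Total counts ran from 18206427 to 22853583, and a count of 0 allowed up to 0.118 to 0.170 CPM (3 counts per library, counting error only). Men1 was at 25.8, 17.1 and 21.4 CPM in M_WT, 8.17, 6.51 and 8.33 CPM in M_KO, 18 CPM in F_WT against 11.8 CPM in F_KO, so that every KO library was below every WT library (M log2 fold change -1.49, SE 0.21, edgeR adjusted p = 0.284, DESeq2 adjusted p = 4.45e-06). The macrophage gene Adgre1, which encodes F4/80, was between 1195 and 2117 CPM in the 8 libraries, while the 7 T and NK cell markers together stayed at or below 1.13 CPM. The 7 B cell markers summed to between 126 and 390.2 CPM in M_WT and between 189.7 and 591 CPM in M_KO. The 8 markers of resident large peritoneal macrophages (Gata6, Timd4, Icam2, Selp, Cxcl13, Garnl3, Alox15 and Tgfb2) summed to between 3557 and 4562 CPM in M_WT, but to 5229, 6980.3 and 1105 CPM in M_KO, 2926 CPM in F_WT and 8561 CPM in F_KO. No gene of the resident list passed in M (0 of 8, edgeR and DESeq2). In bulk RNA, fewer cells of a type and less RNA per cell cannot be told apart.

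The LXR arm held the most abundant of these messages per length. On the authors' FPKM scale, which corrects for gene length, Apoe was first in M_WT with 929.6 ± 17.2 FPKM (SD, n = 3), followed by Pltp with 181 ± 28.6 FPKM and Abca1 with 161 ± 15.3 FPKM. Pltp and Abca1 did not differ beyond their spread. Apoe encodes the apolipoprotein that macrophages load with exported cholesterol, Abca1 the pump that passes cholesterol to lipid-poor apolipoproteins, and Pltp a transfer protein that remodels lipoproteins. The sterol enzymes were low: Mvd led them at 30.5 ± 3.27 FPKM, Hmgcs1 was at 8.43 ± 0.38 FPKM, and Sqle, Dhcr7, Lss, Tm7sf2 and Fdps were all between 0.326 and 1.12 FPKM. Between the receptors, Nr1h2 (30.8 ± 1.88 FPKM) was above Nr1h3 (4.70 ± 1.34 FPKM) in M_WT.

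No member of either arm passed the test for a difference between M_KO and M_WT. At an adjusted p under 0.05, edgeR called 0 of the 38 members tested, where it called 0.022% of all 13646 genes, and DESeq2 called 0 members, where it called 1.21% of its 15544 genes. The lowest adjusted p of a member was 0.474 with edgeR and 0.152 with DESeq2, and the authors' deposited table, which calls 0.553% of its 23513 rows, calls none of them either (0 members). At an unadjusted edgeR p under 0.05 there were 2 members, Lpl and Abca9, in a background of 9.56%. In 3 members the M_KO libraries did not overlap the M_WT libraries (Lpl, Nr1h2 and Abca9), a share that is below the 16.2% of all genes tested. These p-values measure the spread between libraries, each of which bears its own animal number.

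The synthesis arm lay evenly around 0. Of its 22 genes, 10 had a fitted fold change above 0 and 12 below, with a median log2 fold change of -0.01 beside 0.01 over all genes tested, and a range from -0.48 (Idi1) to 0.23 (Pmvk and Lss). The median was 0.11 without M_KO_5645 and -0.17 without M_KO_5642. No gene of the arm separated the groups (0 of 22 without overlap).

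Srebf2, which encodes the transcription factor of the arm, was at 119.6, 109 and 122 CPM in M_WT, 121, 96.5 and 130.4 CPM in M_KO, 123 CPM in F_WT against 124 CPM in F_KO. The groups overlapped fully, and its log2 fold change in M was -0.02 (SE 0.14, edgeR adjusted p = 0.976). Insig1, the sterol sensor that retains SCAP and is itself an SREBP target, was at 73.0, 93.3 and 79.3 CPM in M_WT and 70.7, 42.6 and 76.0 CPM in M_KO. One library, M_KO_5645, lay below the rest, and the log2 fold change was -0.38 (SE 0.23, edgeR adjusted p = 0.627).

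Among the mevalonate enzymes, Idi1, which isomerises the isoprene unit, had 7.31, 6.49 and 4.46 CPM in M_WT and 4.37, 2.63 and 6.08 CPM in M_KO. The ranges crossed, and the log2 fold change of -0.48 had a SE of 0.36 (edgeR adjusted p = 0.687). Pmvk, the phosphomevalonate kinase, was at 5.83, 8.30 and 7.55 CPM in M_WT and 7.77, 7.33 and 10.4 CPM in M_KO, a log2 fold change of 0.23 (SE 0.23). Fdps, which makes farnesyl diphosphate, was low, with 29.5 reads per library on average. It had 1.43, 1.22 and 1.47 CPM in M_WT and 1.70, 0.878 and 2.25 CPM in M_KO. Its M_KO libraries lay on both sides of M_WT (log2 fold change 0.23, SE 0.40), and a processed pseudogene copy of Fdps is listed in the table, so its level is uncertain.

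In the sterol branch, Fdft1 (squalene synthase) was at 5.93, 5.0 and 6.08 CPM in M_WT and 4.88, 2.74 and 7.38 CPM in M_KO, again with M_KO_5645 lowest and M_KO_5642 highest (log2 fold change -0.18, SE 0.36). Fdft1 overlaps Ctsb on the opposite strand, a gene with 70957 reads per library on average against 112 for Fdft1, and the strand setting of the counting is not given in the sources used here, so its level is uncertain. The same holds for Cyp51 (over Akap9) and Ggps1 (over Arid4b), for Tm7sf2, which overlaps Vps51 on the same strand, and in the LXR arm for Pltp (over Ctsa). Lss, the cyclase that closes the sterol rings, was at 7.26, 4.63 and 6.13 CPM in M_WT and 6.69, 7.54 and 6.98 CPM in M_KO (log2 fold change 0.23, SE 0.22). Sc5d, a late desaturase, was at 12.0, 8.51 and 11.5 CPM against 12.8, 9.71 and 12.4 CPM (0.12, SE 0.21 on the log2 scale). Dhcr7, which reduces 7-dehydrocholesterol to cholesterol, varied widely within M_WT, with 2.52, 5.75 and 3.90 CPM in M_WT and 3.18, 5.48 and 5.41 CPM in M_KO (log2 fold change 0.21, SE 0.37). The remaining 13 genes of the arm (Hmgcs1, Sqle, Cyp51, Mvd, Mvk, Stard4, Nsdhl, Hsd17b7, Msmo1, Ebp, Tm7sf2, Acat2 and Ggps1) had log2 fold changes between -0.10 and 0.09.

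The LXR arm did not move as one group. Of 10 genes tested, 6 had a fitted fold change above 0 and 4 below, the median was 0.13, and the range ran from -0.84 (Lpl) to 1.0 (Apoe). Without M_KO_5645 the median was -0.05.

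Apoe (chr7:19696109-19699188, minus strand, GRCm38) was at 1961, 1969 and 2053 CPM in M_WT and 4239, 6102 and 1704 CPM in M_KO. The 3 M_WT libraries were nearly equal, while 2 of the 3 M_KO libraries stood well above them and M_KO_5642 stood below. M_WT averaged 1994 ± 50.8 CPM and M_KO 4015 ± 2208 CPM (SD, n = 3 each), and the log2 fold change of 1.0 (SE 0.43) had an edgeR adjusted p of 0.524 and a DESeq2 adjusted p of 0.311. It was 0.57 without M_KO_5645 and 1.36 without M_KO_5642.

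Mylip, which encodes a ubiquitin ligase, was at 141, 67.3 and 75.8 CPM in M_WT and 121, 242 and 66.1 CPM in M_KO. As with Apoe, M_KO_5645 was highest and M_KO_5642 lowest, but here M_WT_5643 was also high and the groups overlapped (log2 fold change 0.59, SE 0.50, edgeR adjusted p = 0.720; -0.02 without M_KO_5645).

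The transporter genes went separate ways. Abca1 was at 1823, 1504 and 1690.0 CPM in M_WT and 1799.7, 1813 and 1596 CPM in M_KO, a log2 fold change of 0.05 (SE 0.15, edgeR adjusted p = 0.933). Abcg1, the pump that exports cholesterol to mature HDL, was at 46.4, 65.5 and 60.6 CPM in M_WT and 44.3, 58.1 and 35.6 CPM in M_KO (log2 fold change -0.33, SE 0.22, edgeR adjusted p = 0.646). Neither pump separated the groups.

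Lpl (chr8:68880491-68907448, plus strand), which encodes lipoprotein lipase, was at 178, 309 and 366 CPM in M_WT and 157, 176 and 144 CPM in M_KO. All 3 M_KO libraries were below all 3 M_WT libraries, though M_KO_5645 and M_WT_5643 were only 176 against 178 CPM, in a comparison in which 7.15% of all genes tested were lower in M_KO without overlap. The log2 fold change was -0.84 (SE 0.26, edgeR adjusted p = 0.474, DESeq2 adjusted p = 0.152). In the F libraries Lpl was at 131 CPM (F_WT) and 151 CPM (F_KO), below every M_WT library in both genotypes.

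The lipogenic targets were mixed. Srebf1, the gene of the fatty acid regulator SREBP1, was at 98.8, 113 and 111 CPM in M_WT and 99.6, 116 and 104 CPM in M_KO (log2 fold change -0.02, SE 0.12). Scd2, a stearoyl-CoA desaturase, was at 5.88, 8.14 and 7.96 CPM in M_WT and 7.94, 10.3 and 13.3 CPM in M_KO, overlapping by 1 library (log2 fold change 0.52, SE 0.25, edgeR adjusted p = 0.559). Pltp was at 492, 516 and 384 CPM in M_WT and 459, 549 and 682 CPM in M_KO (log2 fold change 0.28, SE 0.20). The remaining genes tested in the arm, Scd1 and Lpcat3, had log2 fold changes of 0.21 and -0.04.

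**Figure D1:**
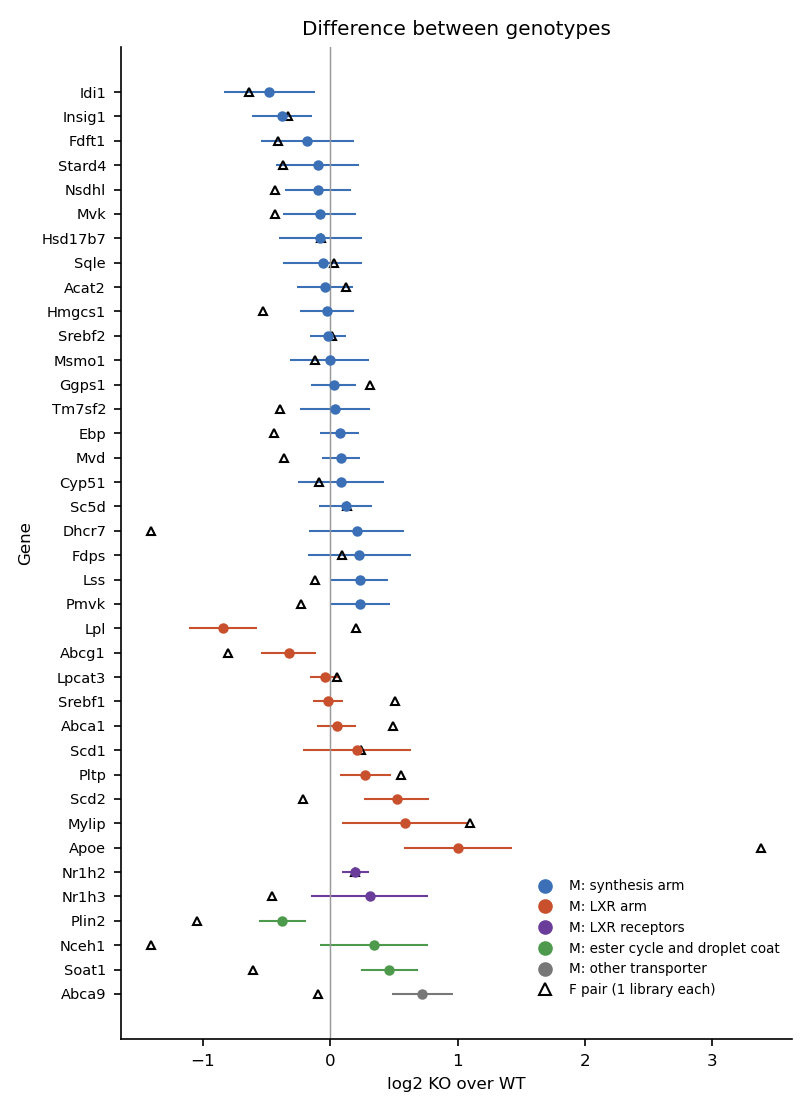
Log2 fold change of KO over WT for the 38 genes tested, by group of genes. Filled points with bars are M_KO against M_WT (edgeR estimate and SE, 3 libraries each), and open triangles are F_KO minus F_WT in log2 CPM (1 library each). Synthesis genes lie around 0 in M, from -0.48 to 0.23, and the widest M values are Apoe (1.0) and Lpl (-0.84); in F, Apoe (3.39) and Mylip (1.10) lie farthest above 0 and Dhcr7 and Nceh1 (-1.41 each) farthest below.

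Both receptor genes had fitted fold changes above 0. Nr1h2 (chr7:44549616-44553951, minus strand) was at 102, 98.0 and 112 CPM in M_WT, 119, 114 and 124 CPM in M_KO, with F_WT at 106 CPM and F_KO at 122 CPM. Every KO library was above every WT library over all 8, by a small margin (114 against 112 CPM at the closest), and 3.35% of all genes tested over 8 libraries were higher in KO in the same way; in M alone the share was 9%. The log2 fold change in M was 0.20 (SE 0.11, edgeR adjusted p = 0.591). A processed pseudogene copy of Nr1h2 is listed too, with 0 reads on average, so the level of Nr1h2 is uncertain, as for Fdps. Nr1h3 was at 8.69, 15.4 and 11.5 CPM in M_WT and 13.6, 6.66 and 23.9 CPM in M_KO, with M_KO_5645 lowest and M_KO_5642 highest. Its log2 fold change of 0.31 (SE 0.46) was -0.24 without M_KO_5642.

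Among the genes of stored sterol, Soat1, which esterifies cholesterol, was at 45, 61.8 and 62.9 CPM in M_WT and 58.0, 81.4 and 95.3 CPM in M_KO (log2 fold change 0.46, SE 0.22, edgeR adjusted p = 0.554). Nceh1, which hydrolyses the ester, was at 21.7, 38.6 and 36.2 CPM in M_WT and 18.6, 44.8 and 59.3 CPM in M_KO (0.34, SE 0.43 on the log2 scale; -0.03 without M_KO_5642). Plin2, the coat protein of lipid droplets, was at 116, 152 and 135 CPM in M_WT and 104, 82.4 and 125 CPM in M_KO (log2 fold change -0.38, SE 0.19, edgeR adjusted p = 0.564). None of the 3 separated the groups. Abca9 (chr11:110100749-110168196, minus strand), a transporter of the ABCA family, was at 192, 138 and 175 CPM in M_WT and 205, 365 and 267 CPM in M_KO. Its M_KO libraries were all above M_WT, with a log2 fold change of 0.72 (SE 0.24, edgeR adjusted p = 0.474, DESeq2 adjusted p = 0.235), but in the F libraries it was at 223 CPM (F_WT) and 209 CPM (F_KO).

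**Figure D2:**
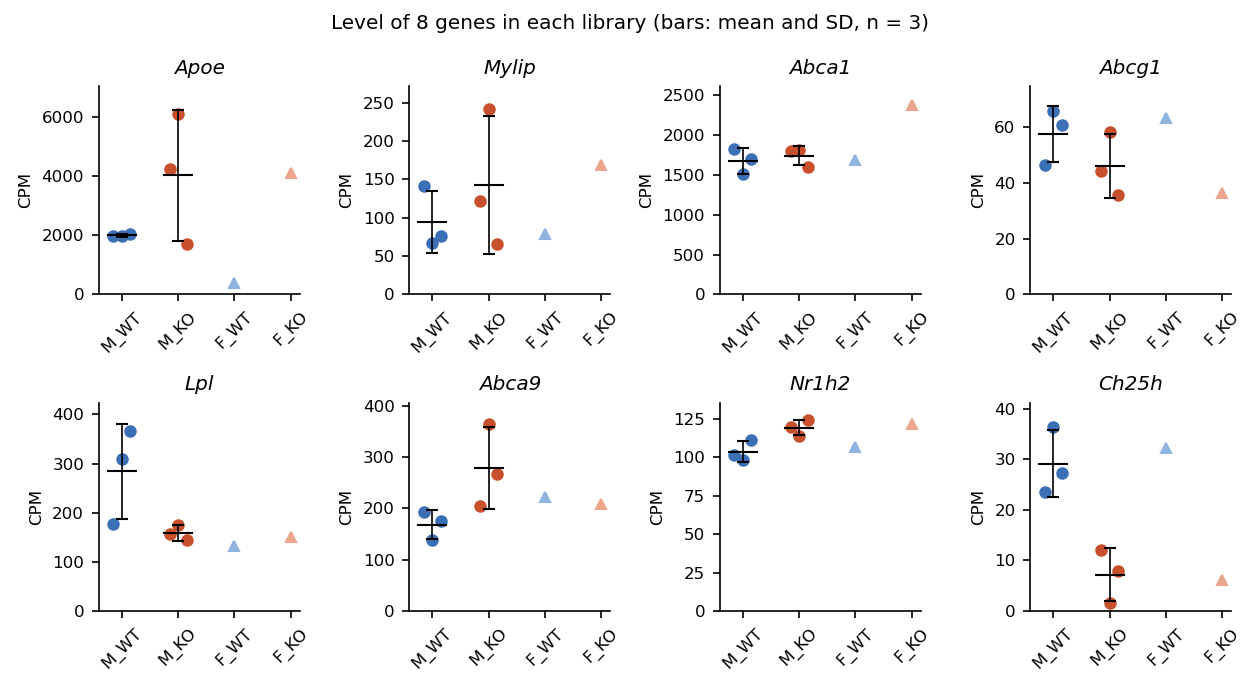
CPM of 8 genes in each of the 8 libraries (linear axes from 0; circles M, triangles F). Horizontal bars and whiskers are the mean and SD of 3 libraries. Apoe and Mylip vary widely within M_KO, Lpl and Ch25h are lower and Abca9 and Nr1h2 higher in every M_KO library, and Apoe is at 391 CPM in F_WT.

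A further fit took in all 8 libraries and tested genotype with M or F as a covariate. Again 0 members were called by edgeR, in a background of 0.00727% of 13751 genes, and 0 by DESeq2 (0.874% of 15099 genes). An unadjusted edgeR p under 0.05 was reached by 2 members, Apoe and Plin2, where 9.48% of all genes reached it. Apoe had a log2 fold change of 1.56 in this fit (edgeR adjusted p = 0.492, DESeq2 adjusted p = 0.0725), and Plin2 one of -0.54 (edgeR adjusted p = 0.492).

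F_WT and F_KO, with a single library each (1 per genotype), give values and no test. More than 2-fold higher in F_KO were 2 members (4.99% of all genes tested), and more than 2-fold lower were 3 (5.38%). Apoe had 391 CPM in F_WT against 4089.5 CPM in F_KO, so that F_KO was 10.5 times F_WT (10.2 to 10.7 by the exact Clopper-Pearson method at 95%, which covers counting error only). F_WT was thus far below the 3 M_WT libraries, which lay between 1961 and 2053 CPM. Mylip was at 78.4 and 168 CPM, a ratio of 2.14 (2.03 to 2.27). The 3 lower members were Nceh1 (49.6 and 18.6 CPM), Dhcr7 (5.77 and 2.11 CPM) and Plin2 (140.3 and 67.9 CPM). Of the synthesis arm, 16 of 22 genes were lower in F_KO, with a median difference of -0.28 in log2 CPM beside 0.01 over all genes tested, and of the LXR arm 8 of 10 were higher, with a median of 0.37. The resident macrophage markers moved in the same pair, from 2926 to 8561 CPM in sum, and their part in these values was not tested.

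Whether the genotype difference itself differed between M and F was tested as an interaction. EdgeR called 0 members (0.0218% of all genes), and 2 members had an unadjusted p under 0.05, Apoe and Soat1, in a background of 4.36%. For Apoe the interaction was 2.38 on the log2 scale with an edgeR adjusted p of 0.965, and for Soat1 it was -1.07 with the same adjusted p. Soat1 was lower in F_KO (51.2 CPM) than in F_WT (77.9 CPM). With 1 library in each F group the test rests on the spread of the M libraries.

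Each library was then scored for the 2 arms. A score is the mean, over the genes of an arm, of log2 CPM minus the gene's mean over the 8 libraries, so that 0 is the average library. The synthesis scores were 0.06, -0.04 and 0.04 in M_WT, -0.07, -0.27 and 0.29 in M_KO, and F_WT scored 0.13 against -0.13 for F_KO. The LXR scores were -0.04, -0.09 and -0.09 in M_WT, -0.00, 0.37 and -0.23 in M_KO, and F_WT scored -0.24 against 0.32 for F_KO. The M_WT libraries were close together in both arms, while the M_KO libraries held both the highest and the lowest synthesis score of the 6 and likewise for LXR. The mean synthesis score was 0.02 ± 0.05 in M_WT and -0.02 ± 0.29 in M_KO (SD, n = 3 each), and the mean LXR score was -0.07 ± 0.03 and 0.05 ± 0.30. The differences between M_KO and M_WT, -0.03 and 0.12, were smaller than the SD within M_KO. Both changed sign without M_KO_5645, to 0.09 and -0.04.

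Across libraries the arms ran in opposite directions. The synthesis and LXR scores had Pearson's r of -0.88 and Spearman's rho of -0.90 over the 8 libraries, -0.90 and -0.83 over the 6 M libraries, and an r of -0.90 after the mean of each genotype was taken out. M_KO_5645, with the lowest synthesis score, had the highest LXR score, and M_KO_5642, with the highest synthesis score, had a LXR score near the lowest. Without these 2 libraries, the farthest from the median synthesis score, r was -0.85 over the other 6. The scores come from the same libraries and the same scaling, and the values are given as a description, with no test. The relation leaned on Apoe and Mylip: without Apoe in the LXR arm r was -0.77, and without both it was -0.60. Without the 5 members that overlap a gene with more reads it was -0.95. These 3 alternatives were chosen after seeing the data.

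The resident large peritoneal macrophage markers moved with both scores. The mean of the 8 markers had r of -0.92 (rho -0.88) with the synthesis score and 0.74 (rho 0.93) with the LXR score over the 8 libraries. Without M_KO_5645 and M_KO_5642 these values were -0.78 and 0.76. Their sum was highest among M libraries in M_KO_5645 (6980.3 CPM) and lowest in M_KO_5642 (1105 CPM), the libraries at the ends of both arms. Taken singly, 5.86% of all genes tested had r under -0.7 with the synthesis score, and 8.4% had r over 0.7 with the LXR score. The mean of 16 interferon-stimulated genes had r of 0.08 and -0.33 with the synthesis and LXR scores. The other marker lists had r with the synthesis and LXR scores of -0.51 and 0.68 (B cell), -0.61 and 0.50 (mast cell and basophil), -0.60 and 0.62 (eosinophil), -0.58 and 0.41 (macrophage), -0.22 and 0.55 (neutrophil), 0.14 and -0.31 (dendritic cell) and -0.11 and 0.21 (mesothelial and fibroblast). The part of these cells in the relation was not tested.

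**Figure D3:**
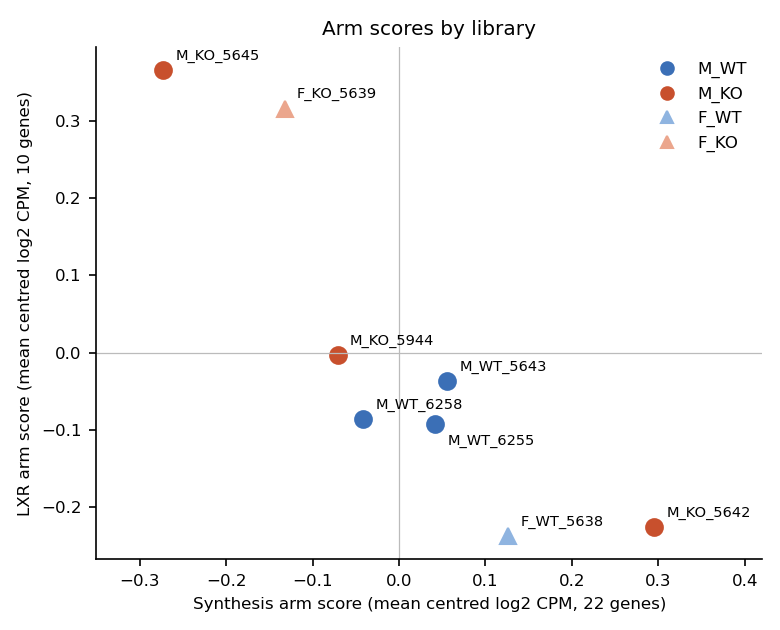
LXR arm score against synthesis arm score in each of the 8 libraries (mean centred log2 CPM of 10 and 22 genes; circles M, triangles F). M_WT lies near the centre, and the 3 M_KO libraries spread along a falling diagonal from M_KO_5645 (-0.27, 0.37) to M_KO_5642 (0.29, -0.23).

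The genes of the synthesis arm varied together to differing degrees. From the lowest to the highest library, the median gene of the arm spanned 0.86 in log2 CPM and that of the LXR arm 1.11, beside 0.91 for all genes tested. M_KO_5642 was the highest library for 12 of the 22 genes and M_KO_5645 the lowest for 9. Against the mean of the other genes of the arm, 18 of 22 had a positive r, beside 50.2% of all genes tested against the score, and 7 of 22 had r over 0.7, beside 5.15%. Those 7 were Fdft1 (0.92), Hmgcs1 (0.90), Msmo1 (0.84), Cyp51 (0.82), Tm7sf2 (0.80), Srebf2 (0.75) and Ebp (0.74), of which Fdft1, Cyp51 and Tm7sf2 are uncertain from their overlaps. Hmgcs1, which makes HMG-CoA, ran from 27.0 CPM in M_KO_5645 to 47.5 CPM in M_KO_5642, with 37.4 to 40.4 CPM in M_WT, and had r of -0.94 with the LXR score. Msmo1, the sterol methyl oxidase, ran likewise from 10.9 to 26.8 CPM, with 18.4 to 20.6 CPM in M_WT. These genes were picked for their correlation, after it was seen. Acat2 (-0.63), Ggps1 (-0.34), Mvd (-0.28) and Lss (-0.02) did not follow the arm: Acat2, the cytosolic thiolase that makes acetoacetyl-CoA, was at 12.4 CPM in M_KO_5645 and 8.01 CPM in M_KO_5642, the reverse of Hmgcs1. Over pairs of genes the median r was 0.33 within the arm, with 157 of 231 pairs positive.

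The LXR arm was less uniform. Only Mylip had r over 0.7 with the rest of its arm (0.80; 1 of 10 genes, beside 8.4% of all genes tested), the median over pairs was 0.16, and 29 of 45 pairs were positive. With the rest of their own arm, Abcg1 (-0.31), Lpl (-0.31) and Scd2 (-0.22) had a negative r and the other genes tested a positive one. Across the arms the median r was -0.23, with 68 of 220 pairs positive. Against the synthesis score, Mylip (-0.78) and Apoe (-0.70) were the most negative, followed by Srebf1 (-0.53), Scd1 (-0.50), Abca1 (-0.47) and Lpcat3 (-0.46). Only Mylip was under -0.7, as were 5.86% of all genes tested. Abcg1 was at -0.23 (rho -0.02), and Lpl (-0.13), Pltp (0.03) and Scd2 (0.20) were near 0. Of the other members, Nr1h3 (0.67) and Plin2 (0.64) went with the synthesis arm, and Nr1h2 (0.03) did not. All these values are over the same 8 libraries, with no test.

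**Figure D4:**
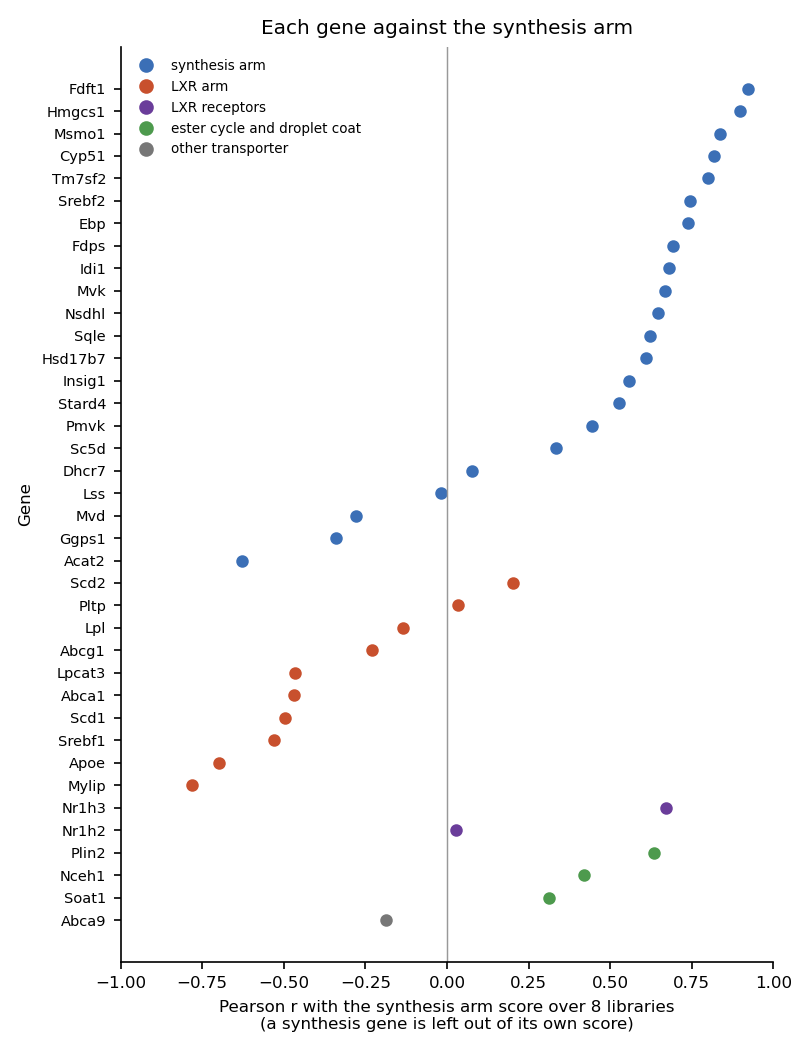
Pearson's r of each of the 38 genes with the synthesis arm score over the 8 libraries; a synthesis gene is left out of its own score. Of 22 synthesis genes 18 lie above 0, from Fdft1 (0.92) downward. Of 10 LXR genes 8 lie below 0, with Mylip (-0.78) the farthest. Of all genes tested, 50.2% had a positive r with the score.

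**Figure D5:**
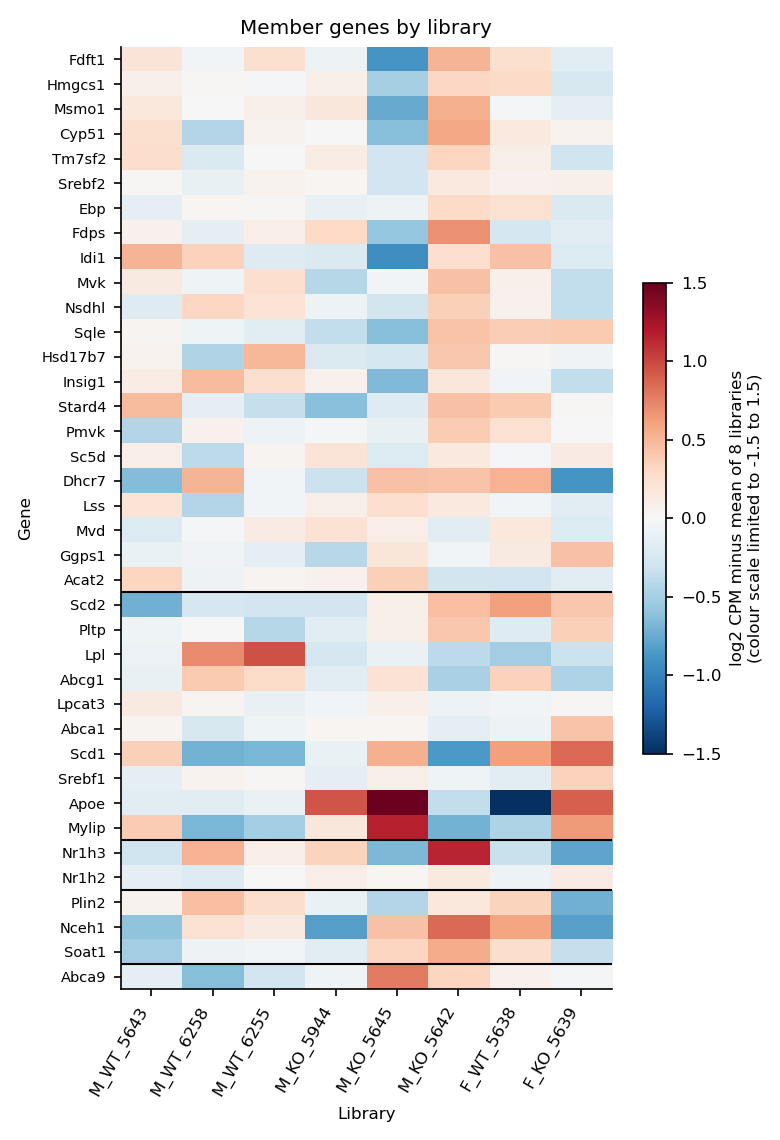
Log2 CPM minus the gene's mean over 8 libraries for the 38 genes tested, with synthesis genes above the first line, LXR genes below it, then receptors, ester cycle genes and Abca9. Most synthesis rows are blue in M_KO_5645 and red in M_KO_5642, and Apoe and Mylip show the reverse.

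Since part of the synthesis arm moved together, its promoters were read for the letters of the factors that regulate it. RefSeq promoter windows of 300 bases (250 before and 50 after the start, build GRCm38.p6) matched 31 of the 39 members, 18 of the synthesis arm and 7 of the LXR arm. SREBP2 binds sterol regulatory elements together with the factor NF-Y, whose box is CCAAT. A gene was counted when any of its windows held the letters, and some genes had several windows (3 each for Dhcr7, Apoe and Srebf1). On either strand, CCAAT was present for 17 of 18 synthesis genes and 4 of 7 LXR genes, beside 41.1% of all 27025 genes. Of the genes that did not follow the arm, Ggps1, Mvd and Lss held it and Acat2 did not. The sterol element core TCACNCCAC was present in 1 synthesis gene, Hmgcs1 (1.44% of all genes). The looser form TCACNNCAC, which includes the first, was in 4 of 18 synthesis genes and 0 of 7 LXR genes (4.37% of all genes). The 4 were Dhcr7, Hmgcs1, Hsd17b7 and Msmo1, with r of 0.08, 0.90, 0.61 and 0.84 to the rest of the arm. In Dhcr7 the looser core and the CCAAT boxes lay in different windows. The E-box CACGTG, which SREBP proteins also bind, was present in 4 of 18 synthesis genes and in Abca1. Its share was 8.09% of all genes and 11.9% of the genes tested. Written as AGGTCA repeated after a spacer of any 4 bases (DR4), the LXR element was in no member's window (0 of 31, beside 0.0148% of all genes). The same was found with AGNTCA in its place (0 of 31, beside 0.144%). Forms with other letters were not searched. These letters are rare in all genes, so the 0 does not show that a window lacks an LXR element.

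The stretches of 200 bases before the RefSeq start are shown for 2 synthesis genes, Hmgcs1 because it alone holds the sterol element core and Mvk because it holds the most CCAAT boxes, and for 2 LXR genes, Mylip because it varied against the synthesis arm and Abca1 because it holds an E-box. They lie at chr13:119690151-119690350 (Hmgcs1, plus strand), chr5:114444069-114444268 (Mvk, plus strand), chr13:45389542-45389741 (Mylip, plus strand) and chr4:53159896-53160095 (Abca1, minus strand), with no annotated exon inside. Each is written 5′ to 3′ on the gene's strand. Capitals mark CCAAT or its complement ATTGG, the looser sterol element core and CACGTG.
Hmgcs1: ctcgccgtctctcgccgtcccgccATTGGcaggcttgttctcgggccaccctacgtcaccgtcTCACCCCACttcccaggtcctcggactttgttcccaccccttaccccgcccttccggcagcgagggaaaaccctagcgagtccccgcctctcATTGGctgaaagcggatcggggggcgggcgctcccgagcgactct
Mvk: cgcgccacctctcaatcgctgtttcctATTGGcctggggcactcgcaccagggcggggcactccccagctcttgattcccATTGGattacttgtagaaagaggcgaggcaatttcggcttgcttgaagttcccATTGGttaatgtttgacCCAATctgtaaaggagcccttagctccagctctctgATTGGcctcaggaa
Mylip: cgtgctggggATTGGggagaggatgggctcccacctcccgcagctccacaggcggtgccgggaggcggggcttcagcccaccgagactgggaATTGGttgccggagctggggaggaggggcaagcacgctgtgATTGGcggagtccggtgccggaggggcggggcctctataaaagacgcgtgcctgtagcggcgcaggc
Abca1: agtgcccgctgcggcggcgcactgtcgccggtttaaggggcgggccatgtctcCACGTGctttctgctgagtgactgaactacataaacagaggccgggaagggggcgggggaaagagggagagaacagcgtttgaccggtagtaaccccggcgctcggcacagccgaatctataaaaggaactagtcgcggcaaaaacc
Hmgcs1 has 1 sterol element core between 2 CCAAT boxes. Mvk has 5 CCAAT boxes and Mylip 3, each with no sterol element core in these letters, and Abca1 has 1 E-box and no CCAAT box. Mvk had r of 0.67 with the synthesis arm, and Mylip, which was chosen for its opposite direction, had -0.78. The part of CCAAT boxes in either direction was not tested. A match of letters is a description and shows no binding.

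Other genes of the same pathways were taken from lists of 79 genes tested. EdgeR called 0 of them and DESeq2 called 2 (1.21% of all genes), Ch25h and Cyp27a1, which both make oxysterols that can bind LXR. The list of oxysterol enzymes they stand on (4 of 6 tested) also holds enzymes that break down or sulphate oxysterols. At an unadjusted edgeR p under 0.05 there were 16 of 79, beside 9.56% of all genes. Without overlap between M_KO and M_WT, 10 of 79 were higher and 8 lower in M_KO, beside 9% and 7.15% of all genes. Over all 8 libraries 4 were higher and 3 lower in KO, beside 3.35% and 2.33% of all genes.

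Ch25h (chr19:34473786-34475135, minus strand) makes 25-hydroxycholesterol and is known as an interferon-induced gene of macrophages. Its level was 23.6, 36.4 and 27.3 CPM in M_WT, 12.0, 1.65 and 7.85 CPM in M_KO, with F_WT at 32.2 CPM and F_KO at 6.15 CPM. Every KO library was below every WT library. It fell with DESeq2 (adjusted p = 0.0376) and in the authors' deposited table (log2 fold change -2.02, adjusted p = 0.0269), but did not pass with edgeR (log2 fold change -2.03, SE 0.62, adjusted p = 0.473). The 16 interferon-stimulated genes all had fitted fold changes below 0 in M (median -1.74 on the log2 scale). None of the 16 was called by edgeR (0, beside 0.022% of all genes) or DESeq2 (0, beside 1.21%). An unadjusted edgeR p under 0.05 was reached by 4 (9.56% of all genes). The authors' deposited table, which calls 0.553% of its rows, calls 2 of the 16, Oasl1 (adjusted p = 0.0370) and Cxcl10 (adjusted p = 0.0450). These were named after their values were seen. The summed CPM of the 16 was between 1177 and 2939 in M_WT and was 1440.3, 160 and 212 in M_KO. F_WT had 436 and F_KO 384. In the F pair, where that sum differed little, Ch25h in F_KO was 0.191 times its level in F_WT (0.157 to 0.230, same method). A second list, of 12 inflammatory genes that are mostly cytokines, had fitted fold changes below 0 in M for all 12 (median -1.22). Of these, 6 were lower without overlap (7.15% of all genes). EdgeR called 0 (0.022% of all genes) and DESeq2 called 4 (1.21%). The authors' deposited table calls Ccl4 (adjusted p = 2.07e-06), Ccl3 (adjusted p = 0.00268) and Il1a (adjusted p = 0.0118), beside 0.553% of its rows. It calls none of the others on this list. The summed CPM of the 12 was 3245 in F_WT and 3322 in F_KO. The part of the interferon and inflammatory genes in the Ch25h level was not tested.

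Cyp27a1, the mitochondrial sterol 27-hydroxylase, was at 9.18, 13.6 and 9.83 CPM in M_WT, 15.5, 31.1 and 26.2 CPM in M_KO, with F_WT at 13.3 CPM and F_KO at 14.0 CPM. All KO libraries were above all WT libraries, by little in F. It rose with DESeq2 (adjusted p = 0.0405) and did not pass with edgeR (log2 fold change 1.16, SE 0.29, adjusted p = 0.434) or in the authors' deposited table (adjusted p = 0.0979).

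Of 12 tested genes on the list of other SREBP2 targets, 1 was higher and 2 were lower without overlap (9% and 7.15% of all genes). The separated genes were Acss2, which makes acetyl-CoA from acetate (log2 fold change 0.86, SE 0.35), Rdh11, a retinol dehydrogenase (-0.58, SE 0.14), and Nus1, of dolichol synthesis (-0.40, SE 0.16). Rdh11 was at 28.0, 27.8 and 26.9 CPM in M_WT and 19.4, 15.8 and 20.2 CPM in M_KO (edgeR adjusted p = 0.434). Of 10 genes of SREBP processing, among them Scap, Insig2 and the site proteases, none separated the groups (0 of 10; median -0.03), and of 9 genes of fatty acid synthesis none did (0 of 9; median -0.04).

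On the list of other LXR targets, 2 of 10 genes tested were higher and 1 lower without overlap (9% and 7.15% of all genes). Apoc4, the neighbour of Apoe in its gene cluster, was at 1.14, 1.33 and 1.67 CPM in M_WT, 2.38, 1.91 and 3.35 CPM in M_KO, with F_WT at 0.387 CPM and F_KO at 4.04 CPM. Vldlr, a lipoprotein receptor, was at 0.247, 0.745 and 0.101 CPM in M_WT and 2.04, 0.826 and 1.26 CPM in M_KO, in part at the level of 3 reads. Tgm2, a transglutaminase, was at 634, 678 and 710.2 CPM in M_WT and 600.1, 305 and 368 CPM in M_KO. None of the 3 passed (edgeR adjusted p = 0.487, 0.481 and 0.489). Apoc1, chosen after its values were seen because it lies in the same cluster, was at 13.8, 3.35 and 7.4 CPM in M_WT, 30.6, 29.3 and 11.8 CPM in M_KO, with F_WT at 3.19 CPM and F_KO at 50.1 CPM. Its r with Apoe was 0.81 (rho 0.71) over the 8 libraries, given without a test, and F_WT was lowest and a KO library highest for all of Apoe, Apoc1 and Apoc4.

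Of 9 partners and cofactors of the LXR proteins tested, 5 were higher in M_KO without overlap and none lower (0), beside 9% and 7.15% of all genes. Over all 8 libraries none separated KO from WT (0 higher and 0 lower), beside 3.35% and 2.33% of all genes. The list median in M was 0.28, with 0 calls by edgeR (0.022% of all genes) or DESeq2 (1.21%). Ncoa1, a coactivator gene, was at 23.7, 22.6 and 23.3 CPM in M_WT and 33.8, 66.1 and 24.1 CPM in M_KO (log2 fold change 0.83, SE 0.35, edgeR adjusted p = 0.524). Ncoa2, another coactivator gene, had 0.44 (SE 0.17), and Rxrb, which encodes a partner that binds DNA with the LXR proteins, had 0.28 (SE 0.12). The corepressor gene Ncor1 had 0.22 (SE 0.11). These 4 genes were highest in M_KO_5645, and in the F pair Ncoa1 was at 32.5 CPM in F_WT against 26.0 CPM in F_KO.

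Of 13 genes of sterol uptake and lysosomal export, none was higher (0) and 3 were lower without overlap, where 9% and 7.15% of all genes were: Msr1, a scavenger receptor (log2 fold change -0.41, SE 0.18), Npc2, which hands lysosomal cholesterol to NPC1 (-0.31, SE 0.13), and Gramd1b, which moves plasma membrane cholesterol to the endoplasmic reticulum (-0.55, SE 0.20). Gramd1b was at 116, 185 and 163 CPM in M_WT, 111, 90.2 and 116 CPM in M_KO, with F_WT at 140.4 CPM and F_KO at 94.5 CPM, lower in every KO than in every WT library (edgeR adjusted p = 0.478). Of 12 genes of neutral lipid storage tested, Pnpla2, the triglyceride lipase, was higher (0.30, SE 0.15) and Dgat2, which makes triglyceride, was lower (-0.82, SE 0.34) without overlap, 1 of 12 in each direction (9% and 7.15% of all genes). Dgat2 was near 3 CPM in most libraries, with 6.27 CPM in M_WT_5643. The lists were set with earlier results of these libraries known, and no list was tested as a whole.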

How the data were processed

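Libraries were made with the NEBNext Ultra kit, per the labels' protocols. Per the submitters' processing notes, the builds were GRCm38 and mm10, and the tools included DESeq2 1.16.1, featureCounts 1.5.0-p3 and, as aligner, HISAT2 2.0.5; no source used here states the strand setting or the handling of reads that map to several places. Deposited were whole read counts per gene, without normalization, FPKM values, which the authors scaled by gene length and library size, and the authors' comparison of M_KO with M_WT as log2 fold changes and p-values. Every value column had a sample or group (0 had none); 8 repeated columns were not used.

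The test was edgeR 4.0.16 in R 4.3.3 (quasi-likelihood, TMM scaling, default expression filter on genotype, Benjamini-Hochberg adjustment over all genes, threshold 0.05): M_KO against M_WT on 6 libraries (biological coefficient of variation 0.30), genotype and letter over 8, and their interaction. Alternatives were DESeq2 1.42.0, other scalings and filters, limma 3.58.1 (voom, and log2(FPKM + 1)), a covariate for animal numbers that begin with 56 and leaving out each library. Log2 CPM used a prior count of 2. Scripts were tested on simulated data. Values per library were given for genes set by role, the 8 synthesis and 6 LXR genes with the largest fold change in M, and genes called or without overlap, up to 4 per pathway list. Members and lists were chosen with earlier results of these data known. A few genes of the pathway lists are counted but not reported singly here.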

Additional observations from a re-analysis of the deposited data

How the results depend on the processing

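No member was called in M, over 8 libraries or in the interaction under any alternative run with a test (0 members each). The number of all genes called in M was 3 with edgeR, 188 with DESeq2, 16 without a filter and 0 to 21 with 1 library left out; over 8 libraries it was 1, 132 with DESeq2 and 0 to 3 with 1 library left out. Ch25h and Cyp27a1 passed with DESeq2 and under no other alternative run. Leaving out 1 library moved the LXR arm's median log2 fold change between -0.047 and 0.22 and the synthesis arm's between -0.17 and 0.11. The difference in score between M_KO and M_WT then ran from -0.19 to 0.09 (synthesis) and from -0.04 to 0.25 (LXR); the LXR difference was -0.0088 with medians over members and -0.016 without Apoe and Mylip. The r of the arm scores was -0.76 with medians over members, and, in alternatives added after seeing the data, -0.77 without Apoe, -0.60 without Apoe and Mylip and -0.95 without overlapping members. With upper quartile scaling the log2 fold changes of Srebf2 and Srebf1 were 0.0020 and 0.0043. With 1 library left out, fold changes crossed 0 for Srebf2 (-0.12 to 0.10), Srebf1 (-0.077 to 0.036), Abca1 (-0.026 to 0.12), Mylip (-0.017 to 1.0), Dhcr7 (-0.038 to 0.54), Fdft1 (-0.58 to 0.12), Fdps (-0.10 to 0.52), Sc5d (-0.020 to 0.24), Nr1h3 (-0.24 to 0.66) and Nceh1 (-0.033 to 0.70). The cause was not tested. No paired analysis was possible because no animal number occurs in both groups. A fit with a covariate for the animal numbers that begin with 56 called 0 members; in it the LXR arm's median was 0.07 and the log2 fold changes of Nceh1, Pltp and Lss were 0.13, 0.17 and 0.15. Fdps, Dhcr7, Mvk and Tm7sf2 were under 5 CPM on average, where small differences were not detectable at this depth.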
